A study of Mus musculus with 14 samples.

Results

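The genes described here encode the receptors, kinases, transcription factor and feedback inhibitors of signalling through gp130, the shared receptor subunit of the interleukin-6 family. They are Il6st, Il6ra, Lifr, Jak1, Jak2, Tyk2, Stat3, Socs1, Socs3 and Cish, 10 of the 24394 named genes in the table, and all 10 were found by symbol. They were picked because Socs3 was lower and Il6st higher with anti-CD22 in these same libraries, so their differences between the groups are given as descriptions with their errors. Calls of members in that contrast are counted once, beside the share of all genes called, and nothing is read from them. RNA was sequenced from microglia, the resident macrophages of the brain, of C57BL/6 mice aged 18 months. Osmotic pumps had delivered control IgG or a blocking antibody against CD22, a sialic acid receptor that inhibits cells, into the cerebrospinal fluid for 1 month, so all animals carried a pump and a cannula. From the brain hemisphere opposite the cannula, about 20000 live CD11b-positive cells with low surface CD45 were sorted, and each group held 7 libraries. Nothing in the labels ties a library to its own mouse, so every p-value measures the spread between these samples, which may be technical.

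Cytokines of the interleukin-6 family bind a receptor of their own, such as the interleukin-6 receptor encoded by Il6ra or the leukaemia inhibitory factor receptor encoded by Lifr, which pairs with gp130, the product of Il6st. Kinases of the JAK family attached to the receptor tails then phosphorylate STAT3, which enters the nucleus and binds DNA. Among its targets is Socs3, whose product binds gp130 and JAK and shuts the signal off, so that its transcript is widely read as a record of recent signalling. Microglia respond to interleukin-6 through this pathway.

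Because STAT factors bind a short palindrome, the promoter windows of the members were searched for the letters TTCNNNGAA, which read the same on both strands. RefSeq promoter windows of 300 bases, from 250 before to 50 after the start, were matched for all 10 members (11 windows, build GRCm38.p6). The motif stood in 2 of these 11 windows, those of Socs3 and Cish, and in 8.30% of all 32851 windows. The bases before the start are printed 5′ to 3′ for Socs3, for Il6st, which differed in the other direction, and for Socs1, a second inhibitor of the same family, with matches to the motif in capitals. For Cish the run from base 1 to base 20 after the start is printed, which holds 2 matches.
Socs3: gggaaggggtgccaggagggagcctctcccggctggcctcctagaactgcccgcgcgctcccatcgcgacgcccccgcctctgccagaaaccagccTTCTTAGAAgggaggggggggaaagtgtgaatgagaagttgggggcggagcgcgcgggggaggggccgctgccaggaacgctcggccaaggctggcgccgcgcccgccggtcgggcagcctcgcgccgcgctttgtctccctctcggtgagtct
Il6st: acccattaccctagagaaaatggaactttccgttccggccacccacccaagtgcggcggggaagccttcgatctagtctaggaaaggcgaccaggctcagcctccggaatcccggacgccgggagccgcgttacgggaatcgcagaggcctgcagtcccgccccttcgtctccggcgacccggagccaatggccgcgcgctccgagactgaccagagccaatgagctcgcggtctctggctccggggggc
Socs1: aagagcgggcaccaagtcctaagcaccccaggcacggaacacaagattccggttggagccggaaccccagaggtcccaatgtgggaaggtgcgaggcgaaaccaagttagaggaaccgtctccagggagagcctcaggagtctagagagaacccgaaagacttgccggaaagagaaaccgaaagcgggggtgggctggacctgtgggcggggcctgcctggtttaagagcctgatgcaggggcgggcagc
Cish: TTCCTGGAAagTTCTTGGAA

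The Socs3 stretch lies at chr11:117969367-117969616 on the minus strand, that of Il6st at chr13:112463820-112464069 on the plus strand, and that of Socs1 at chr16:10785537-10785786 on the minus strand. The match in Socs3 spans bases -154 to -146 before the RefSeq start. In GENCODE, 77 bases of the Socs3 stretch overlap exons of noncoding transcripts of the same gene, while those of Il6st and Socs1 overlap no annotated exon. The Cish run, at chr9:107296659-107296678 on the plus strand, falls in a UTR of a longer GENCODE transcript, and 0.457% of all windows hold 2 or more matches. The AP-1 motif TGANTCA was in 0 of the 11 windows and in 7.81% of all windows. The cyclic AMP response element TGACGTCA was in the Jak1 window alone among the members, at bases -101 to -94, and in 1.79% of all windows. Both were searched on both strands and no match overlapped a match to another motif. A match to letters is a description of these windows and does not show that a factor binds there.

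Libraries held from 20221836 to 38101421 reads where whole reads could be recovered (13 libraries), and from 12606 to 13418 genes above 0. Microglial markers summed to between 1.76e+06 and 2.08e+06 normalized counts with IgG and between 1.85e+06 and 1.98e+06 with anti-CD22. A normalized count is the number of reads of a gene divided by the size factor of its library. The 8 neutrophil markers found summed to between 3.34 and 53327 with IgG and between 0 and 10133 with anti-CD22. Markers of other cell types were present at lower levels than those of microglia. With IgG and with anti-CD22 respectively, monocyte markers summed to 137 to 9181 and 88.2 to 2313, border macrophage markers to 102 to 1684 (median 446) and 262 to 2403 (median 890.4), and astrocyte markers to 5927 to 8617 and 6657 to 8537. Oligodendrocyte markers summed to 5451 to 6710.04 and 4949 to 5659.7, lymphocyte markers, led by Cd79b, to 1208 to 1639.6 and 1134 to 1469, and endothelial markers, led by Pecam1, to 635 to 1201 and 858 to 1226. Of the last 2 lists, Ms4a1, Cd3e, Cldn5 and Slco1a4 were listed at 0 in every library. Neuronal markers summed to at most 112 and pericyte markers to at most 27.4. The part of these cells in the differences of the members was not tested beyond the alternative for neutrophil markers given below. For Cd22 itself the IgG libraries averaged 1469 ± 279 normalized counts (SD, n = 7) and the anti-CD22 libraries 1481 ± 184 (SD, n = 7). This antibody blocks the protein, so the transcript does not check the labels. In sorted bulk samples, fewer cells of a type and less RNA per cell cannot be told apart.

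Within these microglia the pathway was expressed at all of its levels, but not evenly. Levels of different genes were compared as normalized counts per kilobase of the longest annotated transcript, over all 14 libraries. Highest were Jak1, the kinase most tied to gp130, at 1667 ± 140 (SD, n = 14) and Il6st at 1550 ± 304 (SD, n = 14). The ranges of these 2 genes over libraries overlapped, so they could not be ordered. The SD of Il6st includes the group difference for which it was picked. Stat3 at 966 ± 75.6 and Il6ra at 824 ± 135 came next and also overlapped in range. Socs3 stood at 492 ± 110 per kilobase, above 72.5% of the genes tested, and Tyk2, a kinase of the same family, at 310 ± 40.1. Lifr at 167 ± 26.4 and Jak2 at 159 ± 29.7 lay near the middle of all genes tested and could not be ordered. Socs1 was low, at 38.1 ± 11.6, and Cish, an inhibitor best known from STAT5 signalling, was lowest at 2.07 ± 1.32.

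**Figure D1:**
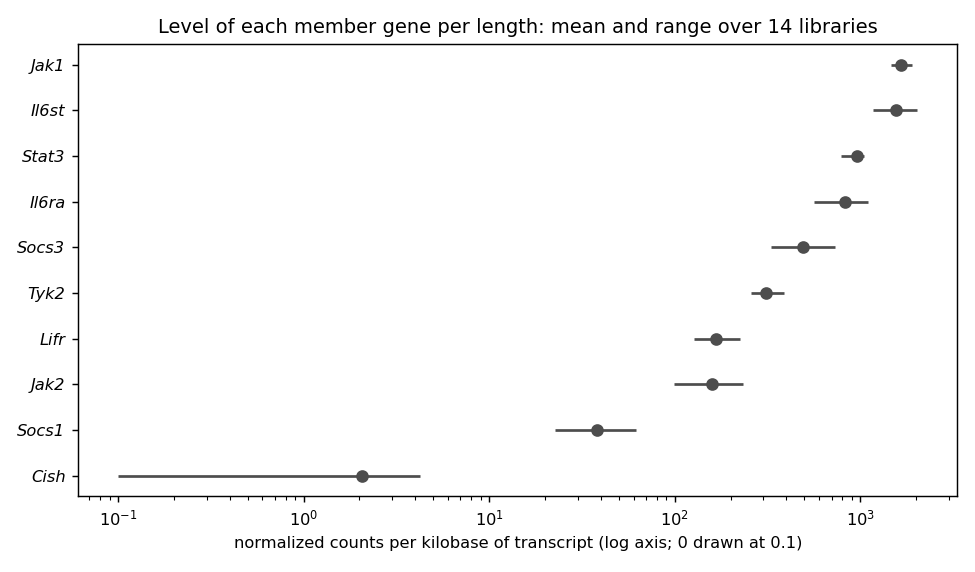
Normalized counts per kilobase of transcript for each member on a log axis, where points are means and bars the range over 14 libraries, with a level of 0 drawn at the left end of the Cish bar. Jak1 and Il6st lie highest, at means of 1667 and 1550, and Cish lowest, at 2.07.

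Compared per kilobase within each library, gp130 transcripts exceeded those of Il6ra 1.93-fold on average (SD 0.5001, n = 14), with a range of 1.18 to 2.85. They exceeded those of Lifr 9.36-fold (SD 1.75, n = 14), from 7.05 to 11.9. By this measure, which takes the longest annotated transcript of each gene, the shared subunit exceeded either partner in all 14 libraries. The median ratio to Il6ra was 1.62 with IgG and 2.23 with anti-CD22, and Il6st was picked for its group difference. Jak1 exceeded Jak2 10.8-fold (SD 2.25, n = 14) and Tyk2 5.46-fold (SD 0.827, n = 14). Socs3 exceeded Socs1 13.8-fold (SD 4.08, n = 14), from 6.95 to 20.1.

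Among the receptors, Il6st (chromosome 13, 112464070 to 112510086, GRCm38) ranged from 10184 through a median of 11297 to 14055 normalized counts with IgG. With anti-CD22 it ranged from 10731 through 15469 to 17651. In 6 of 7 anti-CD22 libraries it lay above every IgG library, and replicate 7, at 10731, lay below the IgG median, so the groups overlapped. The means were 11595 ± 1397 (SD, n = 7) and 15315 ± 2242 (SD, n = 7), a ratio of 1.32 and a difference of 0.39 in mean log2(normalized count + 1), with an SE of 0.094 and a 95% interval of 0.20 to 0.59. Leaving out anti-CD22 replicate 7 gave a difference of 0.48.

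Il6ra, the specific receptor for interleukin-6 (chromosome 3, 89864059 to 89913196), spread from 4869 through 7640.0 to 9532 normalized counts with IgG and from 6164 through 6919 to 7427 with anti-CD22. Every anti-CD22 library (7 of 7) was under the median of the IgG group yet inside its range. The coefficient of variation was 21.6% with IgG and 7.82% with anti-CD22. The log2 difference was -0.07 (SE 0.11, 95% interval -0.31 to 0.16). Lifr, the receptor subunit shared by several other cytokines of the family (chromosome 15, 7090614 to 7197489), ranged from 1223 through 1475 to 1699.5 with IgG and from 1436 through 1694 to 2166 with anti-CD22. Of its anti-CD22 values 6 exceeded the median of the IgG group and 3 exceeded every IgG value, and the log2 difference was 0.24 (SE 0.097, 95% interval 0.04 to 0.45).

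**Figure D2:**
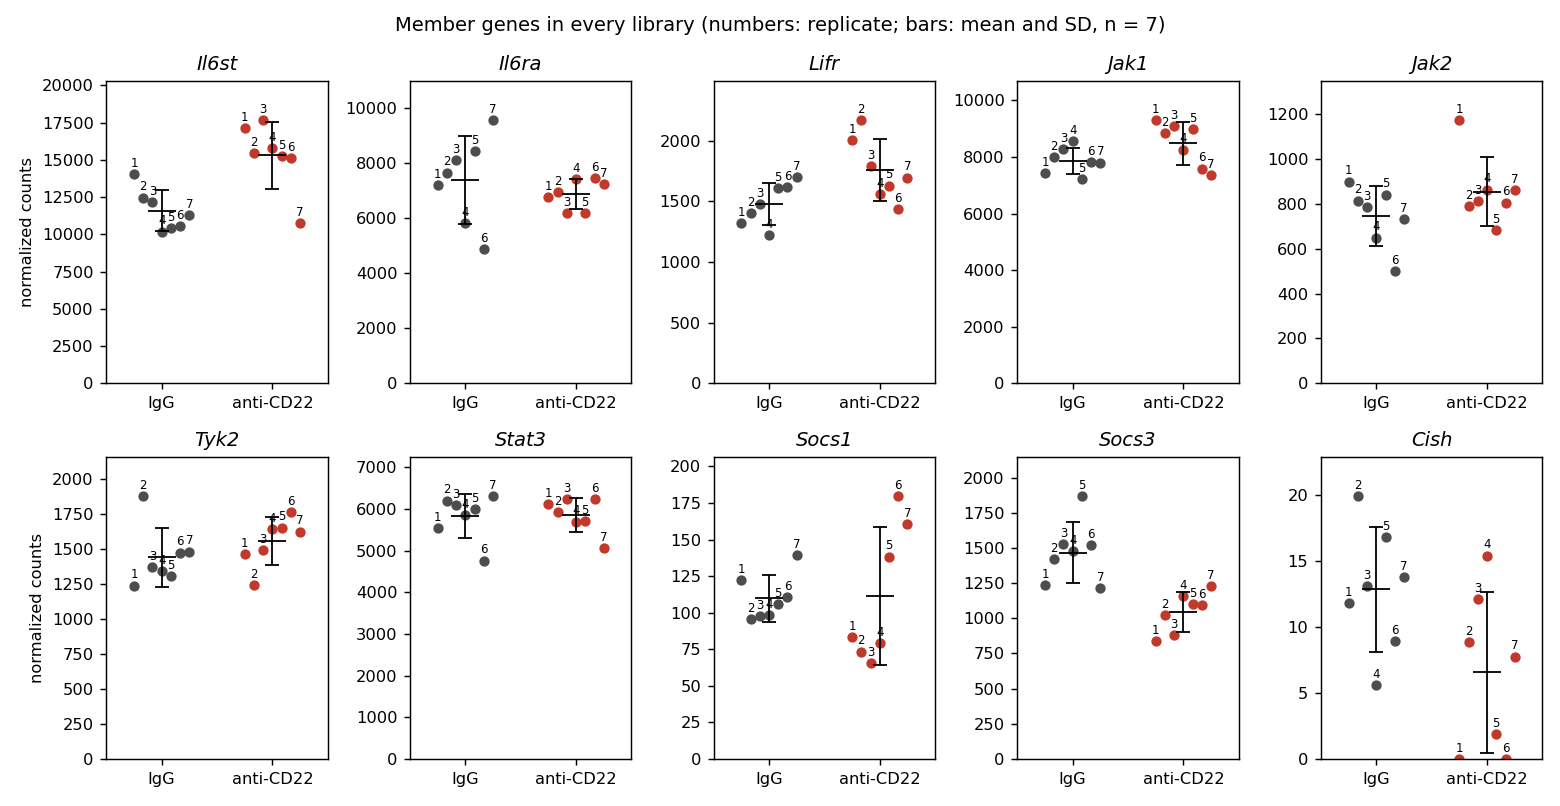
Normalized counts of each member in every library, IgG beside anti-CD22, with 1 panel per gene and the group mean and SD marked. Socs3 lies lower in the anti-CD22 libraries and Il6st higher in 6 of 7 of them, while the other panels overlap widely.

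The 3 receptor-associated kinases had log2 differences from 0.11 to 0.20, all on the higher side with anti-CD22. Jak1 (chromosome 4, 101152367 to 101265282) was among the steadiest genes, its spread within groups being larger than that of only 7.36% of the genes tested. It ranged from 7218 through 7814 to 8549 with IgG and from 7353 through 8837 to 9292 with anti-CD22, a log2 difference of 0.11 (SE 0.061, 95% interval -0.02 to 0.23). Jak2 (chromosome 19, 29251828 to 29313080) ranged from 501 through 786 to 899.9 with IgG and from 682 through 812 to 1173 with anti-CD22, a log2 difference of 0.20 (SE 0.13, 95% interval -0.07 to 0.47). For Tyk2 (chromosome 9, 21104068 to 21131243) the values ran from 1237 through 1369 to 1877 with IgG and from 1244 through 1623 to 1765 with anti-CD22, a log2 difference of 0.11 (SE 0.095, 95% interval -0.09 to 0.31). Each of these intervals includes 0. Jak2 stood at 0.11 without IgG replicate 6 and at 0.12 without anti-CD22 replicate 1, and Tyk2 at 0.18 without IgG replicate 2.

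Stat3, the transcription factor that carries the signal to the nucleus (chromosome 11, 100885098 to 100939540), stood at nearly the same level in both groups. It ranged from 4760.45 through 5988 to 6305 normalized counts with IgG and from 5063 through 5919 to 6227 with anti-CD22. The log2 difference was 0.01 (SE 0.066), and its 95% interval of -0.13 to 0.15 bounds what a difference in this transcript could have been. Stat3 overlaps Stat5a and Jak1 overlaps Raver2 on opposite strands, and the labels do not state a stranded kit, so reads in the shared stretches cannot be told apart. Phosphorylation of STAT3, the step that activates it, was not measured.

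Socs3, the feedback inhibitor of gp130 (chromosome 11, 117966079 to 117970047), had the lowest log2 difference among the tested members. It ranged from 1216 through 1475 to 1868 normalized counts with IgG and from 838 through 1096 to 1229 with anti-CD22. Under the median of the IgG group were 7 of 7 anti-CD22 libraries, 6 of them below every IgG library and 1 just above the lowest. The means were 1466 ± 218 (SD, n = 7) and 1046 ± 143 (SD, n = 7), a ratio of 0.713 and a log2 difference of -0.49 (SE 0.11, 95% interval -0.71 to -0.27). The ratio of Il6st to Socs3 normalized counts within a library had a median of 7.99 with IgG and 13.9 with anti-CD22. Its ranges were 5.58 to 11.4 and 8.73 to 20.5. Both genes were picked for these differences, so a higher ratio with anti-CD22 follows from the choice and is no further evidence.

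Socs1, which inhibits JAK kinases directly (chromosome 16, 10782240 to 10785536), had almost equal means of 110.0 ± 16.1 (SD, n = 7) and 111 ± 46.9 (SD, n = 7) but unequal spread. With IgG it ranged from 95.4 through 106 to 139, and with anti-CD22 from 65.6 through 83.3 to 179.7. Anti-CD22 replicates 1 to 4 lay below every IgG library and replicates 6 and 7 above every one, and the coefficient of variation was 14.6% with IgG and 42.1% with anti-CD22. Its log2 difference of -0.07 had a wide 95% interval, from -0.58 to 0.44. Cish (chromosome 9, 107296026 to 107302784) had between 5 and 19 reads in the IgG libraries and between 0 and 15 in the anti-CD22 libraries with recovered reads. Its mean fell under the minimum of 10 normalized counts, so it was not tested. Anti-CD22 replicates 1 and 6 had 0 reads, which allows up to 2.75 and 2.20 normalized counts respectively (3 reads, counting error only, since the reads carry no molecular identifiers and may be copies of 1 molecule).

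**Figure D3:**
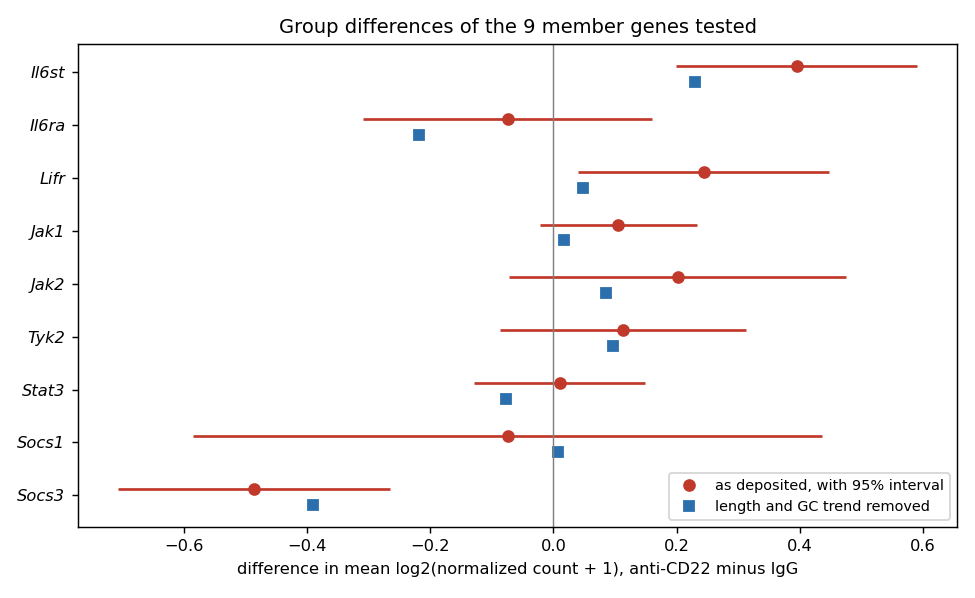
Difference in mean log2(normalized count + 1), anti-CD22 minus IgG, for the 9 tested members with 95% intervals, beside the value after removal of the length and GC trend. Socs3 stands at -0.49 and -0.39, Il6st at 0.39 and 0.23, and Lifr moves from 0.24 to 0.05.

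Over all 11646 genes tested with limma, 1 gene passed an adjusted p of 0.05 (0.00859%), the early response gene Ier2, named after its values were seen. Of the 9 tested members 0 passed, and 3 had an unadjusted p under 0.05 where 12.8% of all genes did (2 higher, beside 6.8% of all genes, and 1 lower, beside 5.95%). Groups did not overlap for 0 of 10 members and for 0.258% of the genes tested. DESeq2, run on the reads of 13 libraries, called 2 members, Socs3 and Il6st, and 0.41% of the 7807 genes to which it gave an adjusted p. Socs1 was given none. With edgeR 0 of 11646 genes (0%) were called, and 1027 had an unadjusted p under 0.05. Without anti-CD22 replicate 7 limma called the same 2 members and 0.369% of genes. Since the members were picked from this contrast, nothing is read from these counts. The median log2 difference of the tested members was 0.11, with 6 higher and 3 lower, beside a median of 0.00 and 50.2% higher over all genes tested.

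A trend with transcript length moved with the groups. The length slope of a library is the change in relative log2 level for each doubling of transcript length, and it averaged -0.042 ± 0.028 (SD, n = 7) in the IgG libraries and 0.042 ± 0.082 (SD, n = 7) in the anti-CD22 libraries. Replicates 1, 2 and 3 of anti-CD22 had the most positive slopes, at 0.11, 0.10 and 0.11, and replicate 7 of anti-CD22 the most negative, at -0.12, which was also the largest in size. The members sit far apart on this scale. The longest transcript of Il6st has 8678 bases and that of Lifr 9655, longer than 96.2% and 97.5% of the genes tested, while that of Socs3 has 2552 bases and a GC content of 58.7%, above 93.6% of them. With the trend of length and GC content removed in each library, the log2 difference was 0.23 (SE 0.064) for Il6st, 0.05 (SE 0.092) for Lifr, -0.22 (SE 0.12) for Il6ra and -0.39 (SE 0.096) for Socs3. The median of the tested members was then 0.02. Without the 3 libraries of most positive slope, Il6st stood at 0.29, Socs3 at -0.34, Lifr at 0.10, Jak1 at 0.03, Jak2 at 0.12, Tyk2 at 0.22 and Socs1 at 0.29.

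Genes that respond within minutes to a stimulus or to handling also moved with the groups. The mean of the 19 tested members of an early response list, centred per gene on the log2 scale, was 0.19 ± 0.15 (SD, n = 7) in the IgG libraries and -0.19 ± 0.18 (SD, n = 7) in the anti-CD22 libraries, and in 7 of 7 anti-CD22 libraries it was under the median of the IgG group. The list's summed level ranged from 41841 to 46990 normalized counts with IgG and from 35456 to 44766 with anti-CD22. The list was chosen with earlier results of these data known and includes Ier2, so its shift between the groups is not independent evidence. Its part in the lower Socs3 was not tested. Leaving out the 8 libraries whose neutrophil markers summed to more than 100 normalized counts, which left 3 libraries per group, gave log2 differences of 0.54 (SE 0.089) for Il6st, -0.69 (SE 0.15) for Socs3, 0.28 for Tyk2, -0.12 for Il6ra and 0.34 for Socs1. Anti-CD22 replicate 7 was among the libraries left out, so neutrophil content and that library cannot be told apart here. Socs1 was thus on the higher side in this setting and without the 3 libraries of most positive slope, but at -0.07 over all libraries. Stat3 stayed between -0.08 and 0.04 over 28 alternatives.

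Because the members were chosen by the difference between groups, how they varied within groups is a separate measurement. Correlations were taken over 14 libraries after subtraction of the group means, with p-values from 100000 permutations within groups, adjusted over 65 relations. None passed (0 of 65), and 7 had an unadjusted p under 0.05. Il6st and Socs3 varied in opposite directions, with a Pearson r of -0.67 (permutation p = 0.00903, adjusted p = 0.184) and a Spearman rho of -0.58 (permutation p = 0.0352). The r was -0.57 within IgG (exact permutation p = 0.171) and -0.76 within anti-CD22 (exact permutation p = 0.0262). It was -0.59 without the 2 libraries farthest from the median of Il6st. With the length and GC trend removed it was -0.21 (permutation p = 0.503).

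**Figure D4:**
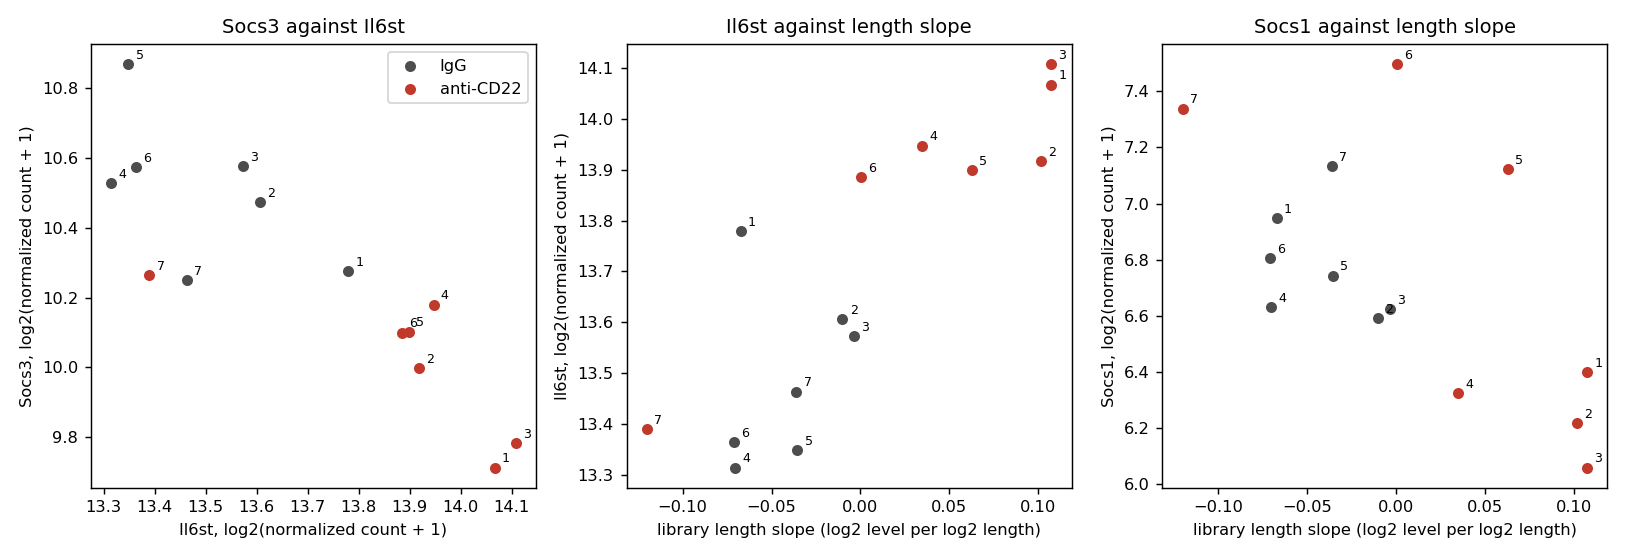
Each point is 1 library, numbered by replicate, for Socs3 against Il6st, Il6st against the length slope and Socs1 against the length slope, with gene levels as log2(normalized count + 1) before subtraction of the group means. Centred within groups, the Pearson r of the 3 panels was -0.67, 0.76 and -0.70.

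Relations with the length slope were also computed, and none passed after adjustment. The r with the slope was 0.76 for Il6st (permutation p = 0.0113), 0.76 for Jak1 (permutation p = 0.0044) and 0.63 for Stat3 (permutation p = 0.00703), each with adjusted p = 0.184. Spearman's rho was 0.64, 0.68 and 0.51, and without the 2 farthest libraries r was 0.75, 0.54 and 0.31. Within IgG alone r was 0.25 for Il6st (exact permutation p = 0.583), 0.12 for Jak1 (exact permutation p = 0.784) and 0.69 for Stat3 (exact permutation p = 0.0621), and within anti-CD22 alone 0.93, 0.92 and 0.78. Leaving out anti-CD22 replicate 7 gave 0.38 for Il6st, 0.63 for Jak1 and 0.41 for Stat3. Socs1 ran the other way, at -0.70 (permutation p = 0.0254, adjusted p = 0.330), with a rho of -0.73, and at -0.53 without the 2 farthest libraries (-0.32 within IgG and -0.74 within anti-CD22). It stayed at -0.69 with the trend removed, where the values of Il6st, Jak1 and Stat3 with the slope were 0.26, 0.10 and -0.10. Removal of the trend takes out variation with length by construction, so these values do not test the part of the slope. The transcripts of Il6st, Jak1 and Stat3 are longer than 96.2%, 77.1% and 86.6% of genes tested, and that of Socs1 than 40.6%. Jak1 and Socs1 had an r of -0.66 (permutation p = 0.0380, adjusted p = 0.353), which was -0.34 without the 2 farthest libraries and -0.19 with the trend removed.

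Il6ra and Jak2 had an r of 0.61 (permutation p = 0.0340, adjusted p = 0.353, rho 0.45), which was 0.17 without the 2 farthest libraries and so rests on those, and 0.27 without IgG replicate 6 alone. It was 0.70 with the trend removed (permutation p = 0.0117, adjusted p = 0.512), 0.77 within IgG and 0.25 within anti-CD22. Socs3 and the early response list had an r of 0.52 (permutation p = 0.0667, adjusted p = 0.434, rho 0.42), with 0.68 within IgG and 0.41 within anti-CD22. Stat3 and Socs3 stood at -0.36 (permutation p = 0.222, adjusted p = 0.677, rho -0.46), or 0.37 with the trend removed. The transcript of the factor and that of its target therefore showed no relation past the threshold in these libraries.

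Among all genes tested, those with the highest r with Socs3 within groups were Pdia6 (0.92), which helps proteins fold in the endoplasmic reticulum, Aimp2 (0.90), Snap47 (0.88), Commd4 (0.88) and Olfml3 (0.87), a gene typical of microglia. The lowest were Golga1 (-0.90) and Dennd2c (-0.87). For Il6st they were the galactosyltransferase gene B4galt1 (0.97), Tmx4 (0.94), the glucocorticoid receptor gene Nr3c1 (0.93), Zswim8 (0.93) and Dennd5a (0.92), with Armc7 (-0.91) and the DNA repair gene Xrcc1 (-0.89) lowest. Once the length and GC trend was removed, the r of these genes with Socs3 ranged in size from 0.70 to 0.83. For Il6st it was 0.88 for Nr3c1, 0.60 for B4galt1 and -0.23 for Xrcc1. They are the extremes of 11646 genes over 14 libraries and carry no test.

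The rest of the pathway was described with a list of 74 genes, of which 56 could be tested, and 0 passed. Of the 56, 24 were higher and 32 lower with anti-CD22, with a median log2 difference of -0.03 (0.00 with the trend removed). An unadjusted limma p under 0.05 was found for 17.9% of them and for 12.8% of all genes tested. Over all genes tested 50.2% were higher. Of the ligands 5 of 12 could be tested, 3 higher and 2 lower. Il6, the founding cytokine of the family, averaged 255 ± 48.3 normalized counts (SD, n = 7) in the IgG libraries and 296 ± 36.1 (SD, n = 7) in the anti-CD22 libraries, a log2 difference of 0.23 (limma adjusted p = 0.501). In 7 of 7 anti-CD22 libraries it exceeded the median of the IgG group. Il27 and Ebi3, the subunits of interleukin-27, had log2 differences of 0.14 and -0.05. Lif and Ctf2 were listed at 0 in every library. Of the other receptors, Osmr was listed at 0 in every library, Il11ra1 had a log2 difference of -0.17 and Il27ra, which varied widely between libraries, one of 0.15.

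Of the other kinases and STATs 6 were tested, 3 higher and 3 lower. Jak3, the kinase of receptors with the common gamma chain, averaged 2401 ± 350 normalized counts (SD, n = 7) in the IgG libraries and 1934 ± 366 (SD, n = 7) in the anti-CD22 libraries, a log2 difference of -0.32 (SE 0.12, limma adjusted p = 0.301). None of the 7 anti-CD22 libraries exceeded the median of the IgG group. Stat6 had a log2 difference of 0.08. Among 15 tested negative regulators 8 were higher and 7 lower. Ptprc, the phosphatase CD45, averaged 7003 ± 590 and 8258 ± 847 (n = 7 each), a log2 difference of 0.24 (limma adjusted p = 0.229), or 0.05 with the trend removed. CD45 on the cell surface was also part of the sorting gate. Pias2 had a log2 difference of 0.33 (0.29 with the trend removed) and the phosphatase gene Ptpn1 one of -0.12.

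Reported targets of STAT3 numbered 35, of which 28 were tested, 9 higher and 19 lower, with a median log2 difference of -0.11. Over all genes tested 50.2% were higher and the median was 0.00. With the trend removed 13 of the 28 were higher and 15 lower. Their median was then -0.08, beside -0.01 over all genes tested. Myc, a driver of growth, averaged 2282 ± 529 normalized counts (SD, n = 7) in the IgG libraries and 1441 ± 212 (SD, n = 7) in the anti-CD22 libraries. Its log2 difference was -0.64 (SE 0.14, limma adjusted p = 0.144), or -0.58 with the trend removed, and 7 of 7 anti-CD22 libraries were under the median of the IgG group. DESeq2 called it (adjusted p = 0.00680), as did limma without anti-CD22 replicate 7 (adjusted p = 0.0455). The AP-1 subunit gene Junb stood at 6062 ± 574 and 4682 ± 1142 (n = 7 each), a log2 difference of -0.41 (limma adjusted p = 0.235), or -0.25 with the trend removed. Without the 3 libraries of most positive slope it was -0.14. Myc and Junb were known to be lower in these libraries when the list was written, so they give no independent evidence of its direction. Bcl6, a transcriptional repressor, ran the other way, at 538 ± 95.03 and 693 ± 61.9 (n = 7 each), a log2 difference of 0.38 (limma adjusted p = 0.235), and 7 of 7 anti-CD22 libraries exceeded the median of the IgG group.

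**Figure D5:**
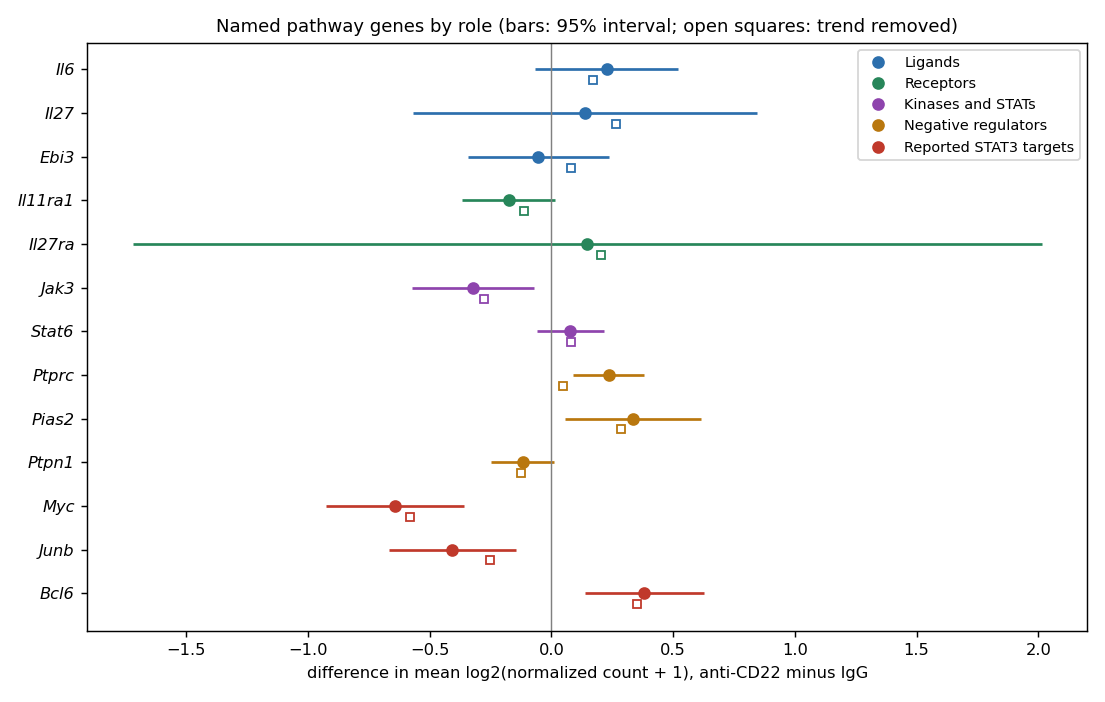
Difference in mean log2(normalized count + 1), anti-CD22 minus IgG, for 13 genes of the pathway list by role, with 95% intervals and, as open squares, the value with the length and GC trend removed. Myc lies lowest at -0.64 and Bcl6 highest at 0.38, and the interval of Il27ra is the widest.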

How the data were processed

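Paired reads of 100 bases were processed with bcl2fastq, STAR (mm10) and DESeq2, per the submitters' processing notes and the labels' protocols, with versions and annotation not given in the sources used here. Values are normalized counts as deposited by the authors, a signal of reads per gene over 1 size factor per library. Of 24421 entries, 27 with names turned into dates were left out (at most 0.149% of a library), and 0 columns were without a sample.

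limma 3.58.1 (R 4.3.3) was run on log2(normalized count + 1) for 11646 genes with a mean of at least 10, with a mean-variance trend and Benjamini-Hochberg adjustment at 0.05. Whole reads were recovered within 0.1 reads for 13 libraries and tested with edgeR 4.0.16 and DESeq2 1.42.0. For anti-CD22 replicate 3 whole reads were not claimed. Length and GC content (GENCODE vM21, GRCm38, known for 96.4% of tested genes) were removed per library with natural splines of 4 degrees of freedom. On simulated counts for this comparison (11646 genes) limma found 61 of 100 genes set to 1.5-fold and 87 of 100 set to 2-fold, with 5 false calls. The simulated counts held no length or GC trend and no outlying library, and low genes were not among those changed. These rates may therefore not hold for the real libraries.

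The members and lists were chosen with earlier results of these data known. Named genes are the 10 members, Cd22, the 3 genes with the smallest p in each of 5 roles of the pathway list, and the 5 highest and 2 lowest correlations with Socs3 and with Il6st. Predicted genes were passed over, and 1 gene that the rule takes is not reported here. Leaving out the 3 anti-CD22 libraries of most positive length slope, and those high in neutrophil markers, was added after seeing the data.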

Additional observations from a re-analysis of the deposited data

Results flagged for a closer look

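Of 78 groups of 7 libraries examined, 6 held a library whose gap to its nearest neighbour exceeded 0.568 of the group's range, where chance gives about 1 in 20. Anti-CD22 replicate 7 accounts for 3 of them. It had 10731 normalized counts of Il6st where the other 6 anti-CD22 libraries had 15129 to 17651, 1782 of Dennd5a (others 2570 to 2997) and 996 of Xrcc1 (others 596 to 718). The same library had the lowest length slope, -0.12, and the part of that slope in these values was not tested. Dennd5a and Xrcc1 were examined for their extreme r with Il6st in these same libraries. The 3 flags are therefore not separate observations, and the rate of 1 in 20 does not hold for them. Jak2 stood at 1173 in anti-CD22 replicate 1 (others 682 to 864). Tyk2 stood at 1877 in IgG replicate 2 (others 1237 to 1481). Olfml3 stood at 136895 in IgG replicate 5 (others 104907 to 117833).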

How the results depend on the processing

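The count of 1 gene past the threshold over all genes became 4 at a threshold of 0.10 and 0 without a mean-variance trend (1340 at an unadjusted p under 0.05), with the length and GC trend removed (1002), with edgeR (1027) and without the 3 anti-CD22 libraries of most positive length slope (581). It became 32 with DESeq2 (14 higher, 18 lower) and ranged from 0 to 43 when each library was left out, 43 (36 higher, 7 lower) being without anti-CD22 replicate 7. Pathway genes past the threshold numbered 1 with DESeq2, and 0 to 1 when each library was left out. That 1 gene was Myc. Relations past the threshold numbered 0 to 1 when each library was left out. The log2 difference of Il6st ran from 0.23 to 0.54 and that of Socs3 from -0.69 to -0.34 over 28 alternatives, and Lifr moved to 0.05 with the trend removed. Leaving out each library gave 0.36 to 0.48 for Il6st and -0.53 to -0.43 for Socs3. Socs1 ran from -0.21 to 0.34. The causes of these changes were not tested.

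With the replicate number as a block, 2 genes passed over all genes (both lower) and 2 relations passed. Taking out both group and number leaves each same-numbered pair of libraries with equal values of opposite sign. The permutation treated these as separate values, so its p-values are too small and nothing is read from the 2 relations. The largest r in size was then -0.89, for Lifr and Socs1, which had -0.36 without the block and 0.20 with the length and GC trend removed instead. Il6ra and Jak2 had an r of 0.82 with the block. Same-numbered libraries correlated from -0.15 to 0.16, over 0.1 in 2 of 7 pairs, and 2 of 7 correlated best with their own number. These values do not show that the numbers pair the samples, and they cannot exclude it.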
